A study of Mus musculus with 10 samples.

Results

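Cyclins, cyclin-dependent kinases (CDKs), CDK inhibitors and E2f factors were examined for binding of RBPJ in RD1 cells, which the labels call brain pericytes of the mouse, the mural cells of capillaries. The genes were selected by a rule on symbols, set with earlier results of these data known: protein-coding genes of GENCODE M21 on chromosomes 1 to 19 named as cyclins (Ccn and a letter), numbered CDKs, inhibitors of the Cdkn1 and Cdkn2 families, and E2f genes. The rule gave 56 of 20807 genes, namely 24 cyclins, 17 CDKs, 7 inhibitors and 8 E2f genes. Another 2 genes with such symbols lie on a sex chromosome and were left out. RBPJ was immunoprecipitated from untreated RD1 cells grown in pericyte medium on collagen-coated dishes, and the DNA was sequenced (ChIP-seq), with 2 replicates. Of the 10 samples of the study, only those of RBPJ had peak files here, whose contents were identical, so that 1 list of 11094 peaks was described and no spread between replicates could be given. The labels name no genotype. The methods of the study, which do not use the name RD1, describe cultured brain pericytes from adult mice homozygous for a floxed Rbpj allele (Rbpj lox/lox), with pericyte markers examined by RT-qPCR and immunostaining. The peak list itself cannot show expression of such markers. The list holds positions without heights or read counts, so depth is unknown, and lack of a peak at a gene is not evidence that RBPJ is absent there.

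RBPJ is the DNA-binding factor of the Notch pathway. With the Notch intracellular domain it activates genes, and with corepressors it keeps them silent. Cyclins D with Cdk4 or Cdk6, and cyclins E with Cdk2, phosphorylate the retinoblastoma proteins and thereby free E2f factors to drive entry into S phase, whereas cyclins A and B with Cdk1 and Cdk2 act later in the cycle. The Cip/Kip and INK4 inhibitors hold these kinases back. Other cyclins and CDKs, such as cyclin T with Cdk9, serve RNA polymerase II instead.

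Most of these genes had an RBPJ peak. A peak centre lay in the gene body or in its regulatory domain (5 kb upstream to 1 kb downstream of the gene start, extended to the neighbouring domains by at most 1 Mb) for 46 of the 56 genes, or 82.1% (95% exact binomial interval 69.6 to 91.1%, counting error only), where 48.4% of all protein-coding genes on the same chromosomes had one. A peak centred within 1 kb of a start of a protein-coding transcript of the gene, called a promoter peak here, was found for 35 of 56, or 62.5% (48.5 to 75.1%), against 28.8% of all genes. The regions searched, gene body with domain, had a median of 122 kb for the 56 genes and 90.7 kb for all genes. A wider region can hold more peaks, and the shares were not adjusted for this. The list gives no spread for a test of the differences in share. The number of peaks per gene was 0 for 10 genes, 1 for 27, 2 for 8, 3 for 9 and 4 for 2 genes, and no peak was counted for more than 1 of the 56 genes. In all there were 78 peaks. Each distance was measured from the peak centre to the nearest start among the protein-coding transcripts of the gene, which can be an inner start and can differ between peaks of a gene. The outermost start of a gene can belong to a transcript of another kind, and then lies outside that set. The median distance from a gene to its nearest peak centre was 642 bp, whereas it was 30509 bp over all genes.

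**Figure D1:**
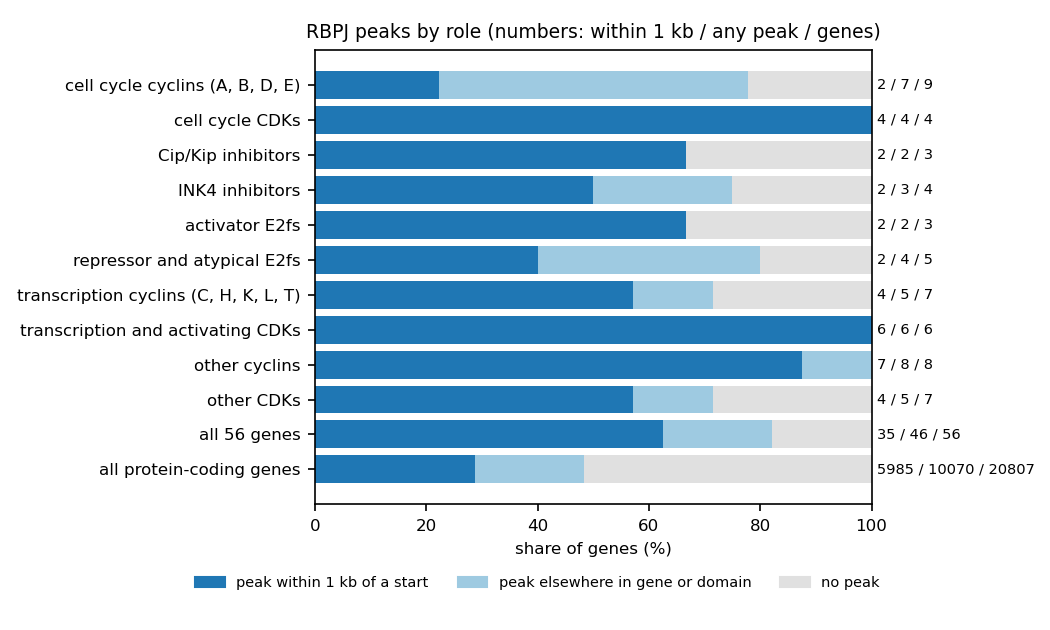
Share of genes (x axis, %) with an RBPJ peak centred within 1 kb of a start (dark blue), with a peak only elsewhere in the gene or its domain (light blue) and without a peak (grey), for each role and for all protein-coding genes on chromosomes 1 to 19. Numbers at the right give genes with a promoter peak, with any peak and in all. Cell cycle CDKs (4 of 4) and transcription CDKs (6 of 6) all had a promoter peak, and the A, B, D and E cyclins had one in 2 of 9.

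The genes without a peak were mostly on chromosomes 4 and 7, where the whole list is thin (158 and 146 peaks). On these chromosomes lie 11 of the 56 genes, of which 4 had a peak (36.4%, against 12.3% of all genes there). Ccnc, Ccne2, Ccnl2, Cdkn1c, Cdkn2c, E2f2 and E2f8 had none. Elsewhere 42 of 45 genes had a peak (93.3%, against 55.3% of all genes), and a promoter peak was found for 33 of 45 (73.3%, against 33.4%). Outside chromosomes 4 and 7 only Ccnb1, Cdk5 and Cdk10 had no peak in the gene or its domain. The regions searched for them were 53.8, 14.1 and 17.5 kb wide. The nearest peak centre was 47345 bp upstream of Ccnb1, the mitotic cyclin B1, 21553 bp upstream of Cdk5, a kinase best known from neurons, and 11023 bp upstream of Cdk10. The first of these nearest peaks lay at the start of Slc30a5, the second at Fastk and the third at Spata33. Why chromosomes 4 and 7 hold few peaks was not tested, and the absence of a peak at a gene there cannot be told apart from that shortage.

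**Figure D2:**
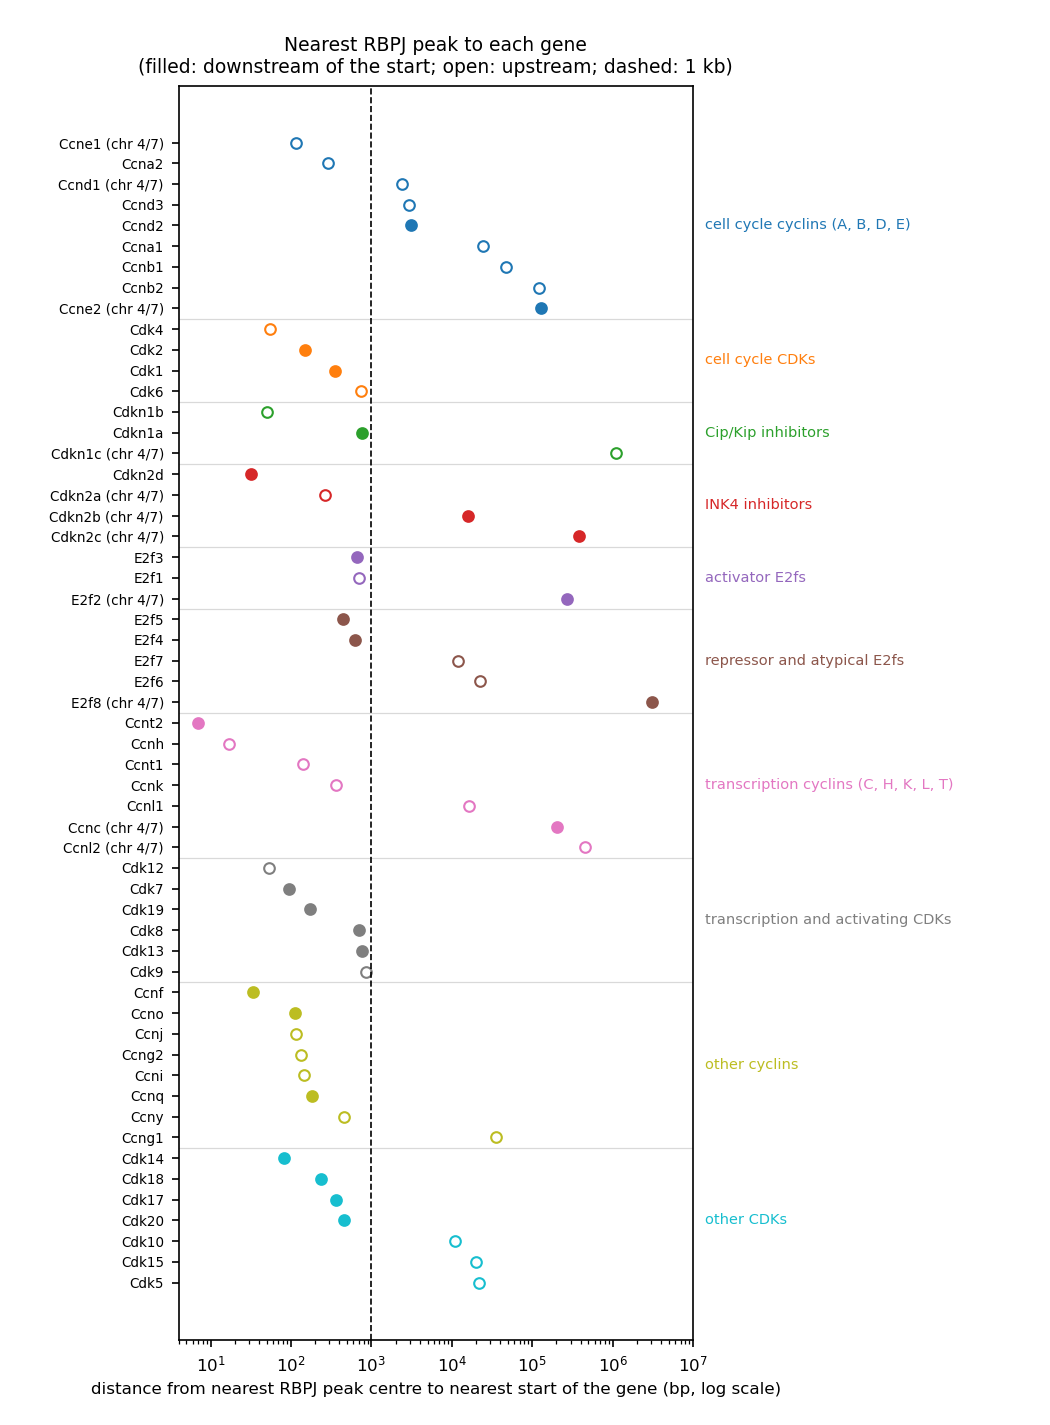
Distance in bp (log scale) from the nearest RBPJ peak centre to the nearest start of each of the 56 genes, grouped and coloured by role. Filled points are downstream of that start, open points upstream, the dashed line marks 1 kb and genes on chromosome 4 or 7 are labelled. Values run from 7 bp at Ccnt2 to 3067003 bp at E2f8, and 35 points lie within 1 kb.

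Promoter peaks were fewer among the cyclins of the cell cycle proper than among their kinases, a contrast of small counts that was not tested. Of 9 A, B, D and E cyclins, 7 had a peak and 2 a promoter peak (22.2%, interval 2.81 to 60%), a share near the 28.8% of all genes. All 4 of their kinases had a promoter peak (interval 39.8 to 100%), and these intervals overlap. Of these cyclins 3 lie on chromosomes 4 and 7, and none of the kinases does. Without those chromosomes 1 of 6 cyclins had a promoter peak (16.7%, against 33.4% of all genes). Ccna2, the cyclin of S and G2 phase, had a peak of 897 bp (chr3:36571391-36572287) centred 288 bp upstream of an inner start and 311 bp downstream of the outermost one. At Ccne1, the cyclin E1 gene, the peak was 949 bp wide (chr7:38107176-38108124) and centred 116 bp upstream. Neither held the core RBPJ recognition sequence TGGGAA, on either strand, over its whole width. Ccna1, known mainly from the germ line, had its peak 24815 bp upstream, and Ccnb2 had a single peak in its domain, 213194 bp downstream of its start at the promoter of Myo1e.

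All 3 D-type cyclins, through which mitogens are known to act on the cycle, lacked a promoter peak but had one between 2 and 4 kb from a start. That band only describes their own distances, and the share of all genes with a peak in it was not counted. Upstream of Ccnd1 a peak of 2466 bp (chr7:144941055-144943520) was centred 2418 bp from the start of its protein-coding transcript (2362 bp from the outermost start, of another transcript) and held 5 TGGGAA sites, 3 of them in the longer form GTGGGAA. Ccnd3 had a peak of 494 bp centred 2967 bp upstream (chr17:47501838-47502331), which is also the promoter of the neighbouring gene Taf8, and others 3037 and 6009 bp downstream in introns. At Ccnd2 the nearest peak was 380 bp wide and centred in an intron, 3121 bp downstream of an inner start and 4307 bp from the outermost one, without a TGGGAA site, and 3 more lay 178595, 183330 and 223932 bp upstream. Thus Ccnd2 with 4 peaks and Ccnd3 with 3 were among the genes with the most peaks, while Ccnd1, on chromosome 7, had 1.

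Each D-type cyclin had 1 peak with GTGGGAA in its central 200 bp, out of 1 peak at Ccnd1, 4 at Ccnd2 and 3 at Ccnd3. The longer motif was in the central 200 bp of 9.24% of all peaks, and 7.69% of all genes had such a peak. These central sequences are printed because the motif lies in them, read along the strand of the gene on GRCm38, with TGGGAA or its reverse complement in capitals. They lie at chr7:144942187-144942386 (minus strand) for Ccnd1, at chr6:127335423-127335622 (minus strand, 183330 bp upstream) for Ccnd2 and at chr17:47501984-47502183 (plus strand) for Ccnd3.
Ccnd1: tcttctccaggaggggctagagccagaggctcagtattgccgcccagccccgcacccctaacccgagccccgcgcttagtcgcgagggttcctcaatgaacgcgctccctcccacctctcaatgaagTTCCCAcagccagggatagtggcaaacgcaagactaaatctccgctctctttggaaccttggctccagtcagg
Ccnd2: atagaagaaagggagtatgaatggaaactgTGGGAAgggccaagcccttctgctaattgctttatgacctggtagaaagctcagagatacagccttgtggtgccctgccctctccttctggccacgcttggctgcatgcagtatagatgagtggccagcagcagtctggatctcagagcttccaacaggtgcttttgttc
Ccnd3: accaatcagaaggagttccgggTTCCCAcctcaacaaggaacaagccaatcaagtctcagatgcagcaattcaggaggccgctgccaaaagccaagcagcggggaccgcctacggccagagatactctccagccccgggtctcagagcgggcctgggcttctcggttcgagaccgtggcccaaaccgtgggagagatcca

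The capitals occur once in each of these windows. In Ccnd1 and Ccnd3 the motif faces the opposite strand to the gene, whereas in Ccnd2 it is on the strand of the gene.

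**Figure D3:**
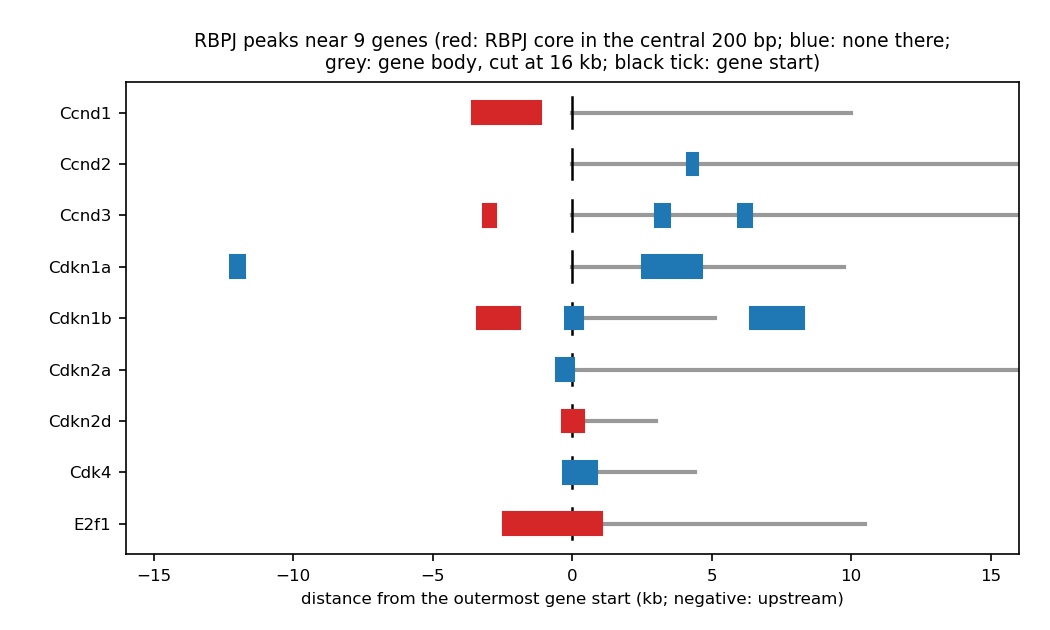
RBPJ peaks drawn to scale around the outermost start of 9 genes (x axis, kb, negative is upstream), with the gene body in grey. Red peaks hold the RBPJ core in their central 200 bp and blue peaks do not. The peaks of Ccnd1 and Ccnd3 nearest to the start are upstream and red, and those at the starts of Cdkn1b, Cdkn2a and Cdk4 are blue. Those at the starts of Cdkn2d and E2f1 are red, and the nearest peak of Ccnd2 is downstream and blue.

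The kinases of the cell cycle differed in width of the promoter peak. Cdk4 had a peak of 1195 bp (chr10:127063216-127064410) centred 55 bp upstream of an inner start, so that it covered the outermost start as well, and Cdk2 one of 681 bp (chr10:128704515-128705195) centred 148 bp downstream. The Cdk2 peak lay also within 1 kb of a start of Pmel. At Cdk1, the mitotic kinase, the promoter peak was 1217 bp wide (chr10:69351942-69353158) and centred 353 bp downstream, and 2 other peaks were 43477 and 131694 bp downstream of the nearest inner start (45585 and 133802 bp from the outermost one). Cdk6 had the widest of the 4, with 3286 bp (chr5:3341337-3344622), centred 753 bp upstream of an inner start and 1494 bp downstream of the outermost one. It held 4 TGGGAA sites, though none in the central 200 bp. A second Cdk6 peak of 236 bp (chr5:3516675-3516910), in an intron 172480 bp downstream of another inner start and 175307 bp from the outermost one, held 1 site, again as GTGGGAA. Its central 200 bp (chr5:3516692-3516891, plus strand) are shown with the site in capitals, since the site is near the middle of this narrow peak.
Cdk6: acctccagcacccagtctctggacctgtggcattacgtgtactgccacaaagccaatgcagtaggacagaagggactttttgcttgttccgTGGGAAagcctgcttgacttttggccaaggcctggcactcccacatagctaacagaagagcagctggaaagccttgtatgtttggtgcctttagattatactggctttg

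Promoters of genes of the cell cycle are known to carry sites for E2f and, in genes of late phases, a cell cycle homology region (CHR). RefSeq promoter windows, from 250 bases before to 50 after a start, were found for 44 of the 56 genes and for 15687 of all genes, with 1 window per gene, the one nearest to the outermost start. TTTNGCGC, a form of the E2F site, was in 2 of the 44 windows (Cdk1 and E2f2, 4.55%), against 1.75% of all. TTTGAA, the CHR core, was in 7 (15.9%, against 15.4%), and CCAAT, bound by NF-Y, in 21 (47.7%, against 38.4%). TGGGAA was in 8 of the 44 windows (18.2%, against 24% of all), those of Ccnb1, Ccng2, Cdk15, Cdk18, Cdk4, Cdkn2a, Cdkn2d and E2f3. All motifs were searched on both strands and overlaps with one another were allowed. The letters alone do not show a site in use. The share of the CHR core was close to that of all genes, that of CCAAT was higher and that of TGGGAA lower. The higher share of the rare E2F form rests on 2 genes, and none of these differences was tested.

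The window of Cdk1 (chr10:69352863-69353162, minus strand, GRCm38.p6) held both an E2F form and CHR cores and overlapped the promoter peak. It is given with TTTCGCGC and each TTTGAA in capitals.
Cdk1: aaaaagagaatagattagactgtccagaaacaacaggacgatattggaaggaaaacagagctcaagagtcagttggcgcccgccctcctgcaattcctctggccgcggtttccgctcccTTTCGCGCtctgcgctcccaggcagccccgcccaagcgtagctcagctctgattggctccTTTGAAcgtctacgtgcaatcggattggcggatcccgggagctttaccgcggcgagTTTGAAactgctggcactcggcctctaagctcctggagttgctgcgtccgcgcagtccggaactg

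Among the 28 windows of genes with a promoter peak, 6 held TGGGAA (21.4%), and 2 of the 16 windows of the others did (12.5%), both below the 24% of all windows. CCAAT was in 39.3% of the former and in 62.5% of the latter, against 38.4% of all. Cdk4 and the inhibitors Cdkn2a and Cdkn2d are shown as examples in which TGGGAA, in capitals on either strand, lay within the promoter peak. The windows are chr10:127063285-127063584 (plus strand), chr4:89294570-89294869 (minus strand) and chr9:21291160-21291459 (minus strand).
Cdk4: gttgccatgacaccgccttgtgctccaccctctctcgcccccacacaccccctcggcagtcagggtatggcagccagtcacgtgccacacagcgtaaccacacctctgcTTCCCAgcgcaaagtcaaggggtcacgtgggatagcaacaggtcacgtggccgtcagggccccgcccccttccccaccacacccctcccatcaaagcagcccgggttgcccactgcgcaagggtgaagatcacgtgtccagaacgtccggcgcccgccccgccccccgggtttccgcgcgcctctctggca
Cdkn2a: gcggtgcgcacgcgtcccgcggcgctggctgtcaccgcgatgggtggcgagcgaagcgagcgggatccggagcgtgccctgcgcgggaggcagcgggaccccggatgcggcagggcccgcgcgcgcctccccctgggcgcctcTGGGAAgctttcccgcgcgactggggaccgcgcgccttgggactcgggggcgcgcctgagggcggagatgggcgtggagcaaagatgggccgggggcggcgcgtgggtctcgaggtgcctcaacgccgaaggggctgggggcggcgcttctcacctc
Cdkn2d: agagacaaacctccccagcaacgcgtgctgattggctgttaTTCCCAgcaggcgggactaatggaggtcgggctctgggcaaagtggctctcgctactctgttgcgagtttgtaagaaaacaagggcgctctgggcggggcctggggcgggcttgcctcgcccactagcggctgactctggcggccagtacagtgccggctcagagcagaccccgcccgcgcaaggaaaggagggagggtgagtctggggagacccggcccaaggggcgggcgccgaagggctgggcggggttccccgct

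Of the 7 inhibitors, 5 had a peak, where 48.4% of all genes had one, and 4 a promoter peak, where 28.8% had one. Cdkn1b, which encodes p27, had 3 peaks. One of 621 bp (chr6:134920153-134920773) was centred 50 bp upstream of an inner start and 62 bp downstream of the outermost one, without a TGGGAA site, and one of 1531 bp, 2644 bp upstream, held 1 site in its central 200 bp. The third was 1927 bp wide and centred 7231 bp downstream. Cdkn1a, which encodes p21, had a peak of 2148 bp (chr17:29093484-29095631) centred 776 bp downstream of an inner start and 3581 bp downstream of the outermost one, with 3 TGGGAA sites, and another of 521 bp 12013 bp upstream, with 2. For the maternally expressed Cdkn1c, on chromosome 7, the nearest peak was 1108518 bp upstream. For the INK4 family, Cdkn2d (p19INK4d) had a peak of 800 bp (chr9:21290976-21291775) centred 32 bp from its start. Cdkn2a had one of 668 bp (chr4:89294585-89295252), centred 265 bp upstream of its outermost start, with 2 TGGGAA sites. Which protein the transcript from that start encodes was not examined, so the peak is not placed at the start of an INK4 transcript. For the neighbouring Cdkn2b the Cdkn2a peak was the nearest, 16121 bp downstream of the Cdkn2b start, but it lay outside the Cdkn2b domain. In that domain 1 peak was found, 164951 bp upstream. Cdkn2c, on chromosome 4, had none.

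Among the 8 E2f genes, 6 had a peak and 4 a promoter peak, beside 48.4% and 28.8% of all genes. E2f1, an activator and itself a target of E2f factors, had a peak of 3546 bp (chr2:154568832-154572377) that covered its start, with the centre 712 bp upstream. Of its 5 TGGGAA sites, 1 was in the central 200 bp. E2f3, also an activator, had one of 2222 bp (chr13:29984295-29986516) centred 658 bp downstream, with 1 site. The repressors E2f4 and E2f5 had peaks of 1476 bp (chr8:105297551-105299026) and 1006 bp (chr3:14578614-14579619), centred 625 and 445 bp downstream of a start, each with 1 site outside the central 200 bp. In E2f6 and E2f7, other repressors, peaks were found only away from the start. E2f6 had its 2 peaks 30209 and 39978 bp downstream, and E2f7 had 2, the nearer of them 11843 bp upstream. E2f2 and E2f8 lie on chromosomes 4 and 7.

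Among the kinases of transcription, all 6 of Cdk7, Cdk8, Cdk9, Cdk12, Cdk13 and Cdk19 had a promoter peak. Of the 7 cyclins of transcription 4 had one (57.1%), Ccnl1 had peaks only farther away, and Ccnc and Ccnl2 had none, where 28.8% of all genes had a promoter peak. Of P-TEFb, the kinase that releases paused RNA polymerase II, Cdk9 had the widest promoter peak of the 56 genes, 3661 bp (chr2:32711812-32715472), centred 858 bp upstream of a protein-coding transcript and 566 bp upstream of the outermost start. Its partners Ccnt1 and Ccnt2 had narrower ones of 548 bp (chr15:98567506-98568053), 143 bp from an inner start, and 628 bp (chr1:127773858-127774485), 7 bp from a start. Cdk7 and Ccnh, of the CDK-activating kinase, had peaks of 495 bp (chr13:100730559-100731053) and 339 bp (chr13:85189222-85189560), the latter the narrowest promoter peak among the 56 genes. Cdk12 and Cdk13, which phosphorylate RNA polymerase II during elongation, had peaks of 1800 bp (chr11:98202106-98203905), 54 bp from a start, and 3322 bp (chr13:17802229-17805550), 758 bp from a start. The peak of their cyclin Ccnk was 1289 bp wide (chr12:108178573-108179861), centred 362 bp upstream, and was shared with the start of Setd3. The Mediator kinases Cdk8 and Cdk19 had peaks of 2350 bp (chr5:146230913-146233262), 702 bp downstream, and 1608 bp (chr10:40348705-40350312), 171 bp downstream of an inner start, each with 3 TGGGAA sites. Their cyclin Ccnc, on chromosome 4, had none. Ccnl1, a cyclin linked to splicing, had 4 peaks, as many as Ccnd2, and the nearest was 16484 bp upstream.

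Ccni had 3 peaks, of which that at its start, of 493 bp (chr5:93206394-93206886), was shared with 2010109A12Rik. Another, only 193 bp wide, lay within an intron of Sept11, 57869 bp downstream of an inner start and 74699 bp from the outermost one. It held 3 TGGGAA sites, the most in the central 200 bp of any of the 78 peaks. The whole peak (chr5:93131700-93131892, read on the minus strand, as the gene) is given for that reason, with the sites in capitals.
Ccni: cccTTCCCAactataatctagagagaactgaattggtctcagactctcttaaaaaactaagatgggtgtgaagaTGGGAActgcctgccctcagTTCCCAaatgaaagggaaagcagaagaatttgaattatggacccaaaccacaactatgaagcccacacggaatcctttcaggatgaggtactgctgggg

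Of the 8 cyclins of other functions 7 had a promoter peak (87.5%, against 28.8% of all genes), among them Ccnq, which was put in this role with the peak list at hand. Ccnf, an F-box protein, had one of 798 bp (chr17:24250977-24251774), and Ccno, which acts in multiciliated cells, one of 694 bp (chr13:112987569-112988262), centred 34 and 113 bp downstream of a start. Those of Ccnj and Ccnq were 569 bp (chr19:40830879-40831447) and 514 bp wide (chr11:78751289-78751802), 116 and 184 bp from a start. None of these 4 peaks held TGGGAA. The peak of Ccny was 1737 bp wide (chr18:9449734-9451470) and centred 452 bp upstream without TGGGAA, and that of Ccng2 was 1853 bp wide (chr5:93267254-93269106), 134 bp upstream of an inner start and 923 bp downstream of the outermost one, with 3 sites. The remaining cyclin, Ccng1, known as a target of p53, had its single peak 35849 bp upstream. Of the 7 CDKs of other functions, 4 had a promoter peak (57.1%, against the same 28.8%). Cdk14, a partner of cyclin Y, had one of 1361 bp (chr5:5379435-5380795), 82 bp downstream of an inner start, with 1 TGGGAA site. The PCTAIRE kinases Cdk17 and Cdk18 had peaks of 1299 bp (chr10:93160607-93161905), 366 bp downstream, and 1088 bp (chr1:132138822-132139909), 240 bp downstream, with 1 and 3 sites. That of Cdk20 was 558 bp wide (chr13:64432488-64433045), 452 bp downstream, without a site. Cdk17, Cdk18 and Cdk20 had 3 peaks each, and a peak of 8546 bp in the domain of Cdk17, within an intron of Elk3, was the widest of all 78. Cdk15 had 1 peak, 84236 bp downstream in its own intron.

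The 35 promoter peaks were centred 7 to 858 bp from a start, with a median of 184 bp, and 18 were within 200 bp. The centre was upstream of the nearest start in 16 and downstream in 19, but measured from the outermost start it was upstream in 10 and downstream in 25. The peak covered the start nearest to its centre in 34 of 35, with Cdk20 as the exception. For Ccnt1, Cdk13, Cdk14, Cdk19, Cdk6 and Cdkn1a the promoter peak was within 1 kb of an inner start only, and with the outermost start of each gene alone 29 genes had one. A start of another gene lay within 1 kb in 3 of the 35 (those of Ccni, Ccnk and Cdk2). The regions of the 56 genes held 38 peaks within 1 kb of the start of any gene, since 3 lay only at a start of Rhobtb1, Taf8 or Myo1e. Starts of 2 or more genes lay within 1 kb of 3 of these 38 (7.89%), against 12.2% of all promoter peaks.

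Some start lay within 1 kb of 48.7% of the 78 peak centres (37.2 to 60.3%) and of 49.6% of all 10947 peak centres on chromosomes 1 to 19. The mixture of promoter and other peaks was thus close to that of the whole list. The 38 peaks at a start of any gene had a median width of 1010 bp (quartiles 623 and 1700 bp), where all promoter peaks had 829 bp (514 and 1400 bp). The 35 at a start of the 56 genes themselves had a median of 1088 bp, and 7 of them were wider than 2 kb (Cdk13, Cdk6, Cdk8, Cdk9, Cdkn1a, E2f1 and E2f3), or 20%, against 13.4% of all promoter peaks. The 40 other peaks had a median of 526 bp, close to 519 bp over all such peaks. Peak centres were intergenic in 43.6% of the 78, in introns in 33.3%, in untranslated exons in 14.1% and in coding exons in 8.97%, with 40.1, 35.4, 17.9 and 6.61% over all peaks.

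TGGGAA was rare in the middle of promoter peaks and frequent in the others. Of the peaks at a start of any gene, 10.5% had it in the central 200 bp (4 of 38, interval 2.94 to 24.8%), where 16% of all had it, as did 45% of the other peaks (18 of 40, interval 29.3 to 61.5%), where 35.3% of all had it. Each of these intervals includes the share of the whole list. Only Cdkn2d and E2f1 had the motif in the central 200 bp of their own promoter peak. Over the whole width 22 of the 38 promoter peaks held a site (57.9%, with 58% of all promoter peaks) and 30 of the 40 others (75%, with 71.6%). GC content of the central 200 bp averaged 64.6% ± 9.21 (SD over peaks) in the promoter peaks and 49.6% ± 7.1 in the others. The whole list had nearly the same means, 64.6% ± 10.7 in promoter peaks and 49.8% ± 8.21 in the others. Over all 78 peaks the share with TGGGAA in the central 200 bp was 28.2%, against 25.7% of all peaks. That of GTGGGAA was 10.3%, against 9.24%, so that the peaks of these genes were close to the list in both. Counted by gene, 19 of the 56 had a peak with TGGGAA in its central 200 bp (33.9%, against 18.5% of all genes, of which fewer had a peak at all). For GTGGGAA there were 8 (14.3%, against 7.69%), namely Ccnb2, Ccnd1, Ccnd2, Ccnd3, Ccng2, Ccnh, Cdk18 and Cdk6.

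**Figure D4:**
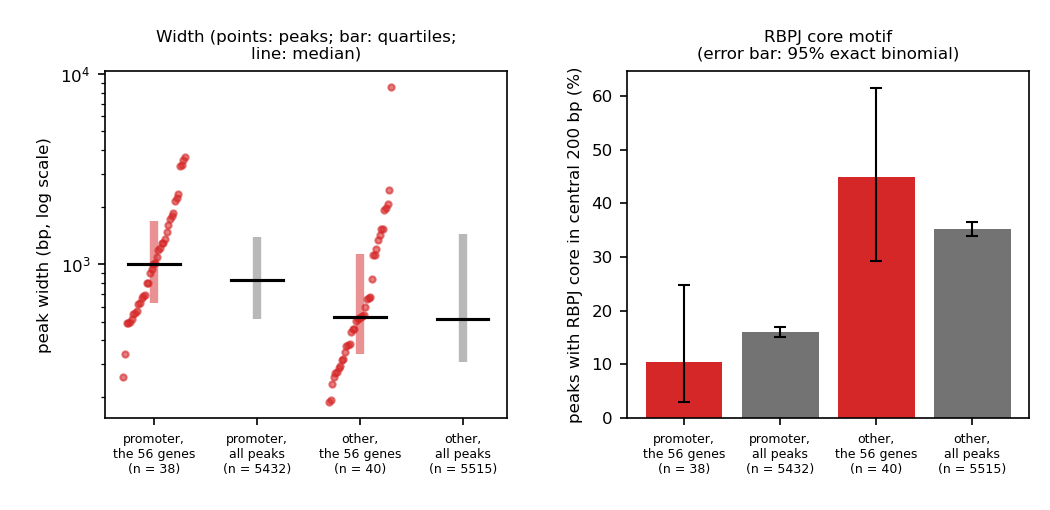
Left, width in bp (log scale) of promoter and other peaks of the 56 genes (points) with quartiles (bar) and median (line), beside all peaks on chromosomes 1 to 19. Right, share of the same peaks with the RBPJ core TGGGAA in the central 200 bp, with 95% exact binomial intervals. The share is 10.5% in promoter peaks and 45% in other peaks of these genes, and both intervals include the share of all peaks of the kind.

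Gene starts rich in CpG were more frequent among the 56 genes than elsewhere, and promoter peaks go with such starts over the whole genome. A start was called CpG-rich when the 500 bp to either side of the outermost start had at least 55% GC and an observed to expected CpG ratio of at least 0.6. This held for 41 of the 56 genes (73.2%) and for 39.8% of all genes. Among CpG-rich starts, 26 of 41 genes had a promoter peak (63.4%, against 50.2% of all genes of that class) and 32 had any peak (78%, against 67.8%). Without chromosomes 4 and 7, 24 of 31 had a promoter peak (77.4%, against 56.8%). Among the other starts it was 9 of 15 (60%, against 14.6%), and 14 of 15 had any peak (93.3%, against 35.5%). The distance to the whole genome was therefore smaller within the CpG-rich class. The part of CpG content in the result was not tested beyond these shares. Of the 9, the promoter peaks of Ccnt1, Cdk14, Cdk19 and Cdkn1a were at inner starts, for which CpG content was not measured. The starts of Ccnq, Cdk7 and Cdk20 missed only the GC limit, narrowly (54.2, 53.2 and 53.7%). Those of Cdk1 and Cdk18 missed only the limit of the CpG ratio (0.53 and 0.55). How many of all genes in this class lay as near to the limits was not counted.

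**Figure D5:**
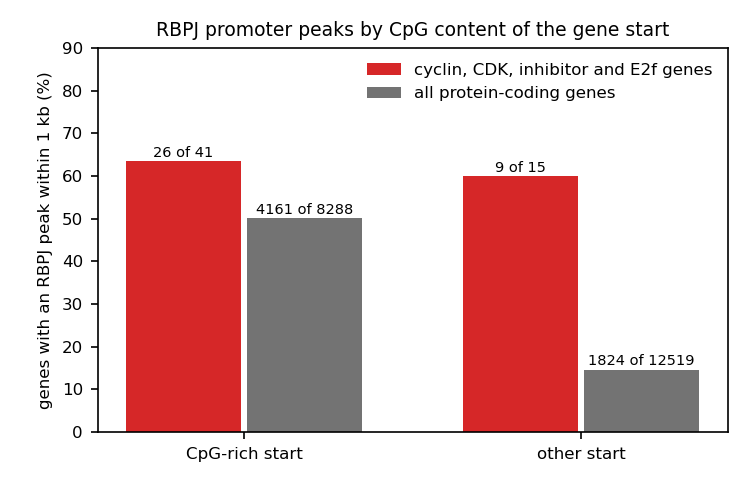
Share of genes (y axis, %) with an RBPJ peak centred within 1 kb of a start, for genes with a CpG-rich start and for other genes. Red bars are the 56 cyclin, CDK, inhibitor and E2f genes and grey bars all protein-coding genes on chromosomes 1 to 19, with counts above. The bars differ by less among CpG-rich starts (63.4 and 50.2%) than among the others (60 and 14.6%). The red genes with a promoter peak among the others had it at an inner start or had a start near the CpG limits.

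A list of 27 partners of these proteins was treated in the same way, covering the Rb family, DP factors, the DREAM and MuvB complex and regulators such as Cdc25 and Skp2. A peak was found for 19 of 27 (70.4%) and a promoter peak for 15 (55.6%), beside 82.1% and 62.5% of the 56 genes and 48.4% and 28.8% of all genes. Of the pocket proteins, Rbl1 and Rbl2 had promoter peaks centred 119 bp upstream and 227 bp downstream of a start, while Rb1 had its nearest peak 87886 bp downstream. Of the DP partners of E2f factors, Tfdp1 had a promoter peak of 3257 bp and Tfdp2 no peak. Lin9, Lin52, Mybl2 and Foxm1, of the complexes that time late genes, had promoter peaks, as did Cdc25a, Fbxw7, Fzr1, Mdm2, Pkmyt1, Skp2 and Trp53. At Trp53, which encodes p53, the peak was 2464 bp wide and centred 1 bp from a start. It was shared with a start of Wrap53, and those of Foxm1, Lin52 and Skp2 were shared with Rhno1, Aldh6a1 and Lmbrd2. Myc, a known Notch target in other cells, had 14 peaks, but its region of 2000 kb is the widest that the domain rule allows, where the median of the list was 92.1 kb. One of the peaks, of 5013 bp, was centred 60 bp upstream of a start. Those without a peak were Cdc20, Cdc25b, Cdc25c, Cks2, Lin37, Rbbp4, Tfdp2 and Wee1, and of the 4 on chromosomes 4 and 7 (Cdc20, Lin37, Rbbp4 and Wee1) none had one.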

How the data were processed

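RBPJ ChIP-seq of RD1 cells (2 replicates) was analysed. The authors mapped reads with bowtie on GRCm38 and discarded duplicates. Peak calls of MACS2 and PeakRanger less than 2 kb apart were joined, a region needed 3 or more calls among the 2 replicates and both callers, and ENCODE blacklist regions were dropped. Merging can move the centre of a wide peak away from the bound site. The deposited values are start and end in bp, taken as counted from 1, without a score. The tool names in the labels carry no versions.

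Genes were those of GENCODE M21 (GRCm38), and 0 peaks ran past a chromosome end. Domains followed the basal plus extension rule named by the study, and the peak centre decided. The gene list and the partner list were chosen with earlier results of these data known, and Ccnq was added to its role group later, with the peak list at hand. All genes are accounted for. Those with a promoter peak, the 5 with the most peaks and those without a peak were to be named, and ties widened the second set. Genomic sequence came from GRCm38.p6 and promoter windows from RefSeq. Shares have 95% exact (Clopper-Pearson) binomial intervals, and no test was run. Assignment and motif search were tested on simulated data. Alternatives covered gene region, distance limit, start set, peak edge, width, motif and chromosomes. The software was pysam 0.24.0, scipy 1.17.1, pandas 2.3.3 and numpy 2.4.6 under Python 3.11.15. The other 8 samples were not analysed here.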

Additional observations from a re-analysis of the deposited data

How the results depend on the processing

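The number of genes with a promoter peak ranged from 26 to 38 over its alternatives and stayed within 1.5 times the reported 35 in each, and the share of promoter peaks among the 78 kept within its interval. Results that left their range did so as follows. With gene bodies alone, 28 genes had a peak and 33 peaks were counted, and with basal domains alone 33 peaks, since smaller regions hold fewer peaks by construction. Genes with a CpG-rich start, an alternative chosen after seeing the data, had 49 peaks because fewer genes were counted. The share of peaks with the motif was 66.7% over whole peaks and 10.3% for GTGGGAA, by construction of a longer window and a longer motif. With narrower peaks than 500 bp left out the median width was 1122.5 bp, also by construction. The median distance was 0 bp when measured to the peak edge. Distances can only shrink in that way, but the value of 0 bp also reflects that peaks covered starts, as 34 of the 35 promoter peaks did. Without RBPJ replicate 1 and without RBPJ replicate 2 every value was as reported (46 genes with a peak, 35 with a promoter peak, 78 peaks, 48.7%, 28.2%, 675.5 bp and 641.5 bp), as both files hold 1 list. No paired analysis was possible because no groups are compared. Depth is unknown, and the weakest binding that the list could hold was not tested.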
